A study of Caenorhabditis elegans with 12 samples.

Results

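5 of the 46687 genes in the count table are described here, all protein-coding and all selected on measured values, because their RNA was higher on day 7 (D7) than on day 1 (D1) of adulthood in cells of the proximal somatic gonad (PSG) of Caenorhabditis elegans. C54F6.15, C54F6.6 and bcmo-2 were picked for that difference in daf-2(rf) animals, and F44E7.5 and Y47H9C.1 for the same difference in daf-16(0); daf-2(rf). In the genotype that picked a gene, its age difference is therefore given as a description, without a test. A test is given only for the age difference in the other genotype, which the choice did not use.

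The tissue comprises the spermatheca and the uterus. Its cells were marked with GFP driven by the fos-1a promoter from a single-copy transgene, sorted from pooled, dissociated hermaphrodites, and sequenced after amplification of polyA RNA as 12 libraries, 3 replicates for each of 4 groups. The groups were daf-16(0); daf-2(rf), called the double mutant below, at D7 and at D1, daf-2(rf) on D7 and daf-2(rf) on D1. daf-2(rf) is the reduction-of-function allele e1370 of the insulin/IGF-1 receptor gene and daf-16(0) is the null allele mu86, so every group carried the daf-2 mutation and the GFP transgene, and no wild type was in the comparison. Each dissociation pooled many animals, and the 3 libraries of a group are described as biological replicates.

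Insulin/IGF-1 signalling through DAF-2 keeps the FOXO transcription factor DAF-16 out of the nucleus. When the receptor is impaired, DAF-16 enters nuclei and raises the expression of stress-response and metabolic genes, and a daf-16 null mutation removes this response. bcmo-2 encodes a protein of the family of the vertebrate carotenoid oxygenases, enzymes that cut dietary carotenoids and in vertebrates supply retinal. The count table annotates no function for C54F6.15, C54F6.6, F44E7.5 or Y47H9C.1.

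Each library held 6183054 to 16407304 reads assigned to genes. Levels are given in CPM, read counts relative to the scaled library total, with the totals scaled by trimmed-mean-of-M-values (TMM) factors over the 12 libraries, and 1 read was worth 0.0250 to 0.372 CPM depending on the library, so that a count of 0, which allows up to 3 reads, leaves levels of 0.0751 to 1.12 CPM open. The TMM factors ran from 0.385 to 3.21, so the order of libraries in CPM can differ from that in reads. Transcript D1054.11 alone took 6.22% to 21.9% of a library's reads. daf-16 itself stood on D7 at 6.24 to 10.3 CPM in double mutant libraries and at 13.3 to 43.4 CPM in daf-2(rf) libraries. On D1 it stood at 4.94 to 18.5 CPM in the double mutant and at 35.0 to 41.7 CPM in daf-2(rf). The genotypes thus did not overlap at either age, and their ranges overlapped only with the ages pooled. The summed level of 10 PSG markers was 2831 to 12245 CPM over all libraries, and all 10 markers had reads in every group. Summed over their lists, 14 intestine markers reached 25.0 to 2137 CPM, 11 germ line markers 5.49 to 149 CPM, 5 gonadal sheath markers 49.6 to 226 CPM, 6 body-wall muscle markers 35.8 to 234 CPM, 9 neuron markers 73.1 to 626 CPM, 6 hypodermis markers 3.16 to 184 CPM, 7 sperm markers 0 to 7.10 CPM, 3 pharynx markers 0 to 19.8 CPM and 2 coelomocyte markers 0 to 169 CPM. In bulk samples, fewer cells of a type and less RNA per cell cannot be told apart.

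C54F6.15 and C54F6.6 are immediate neighbours on chromosome V (build WBcel235). In the count table C54F6.15 lies on the minus strand at 7522032 to 7522364 with 285 counted bases, C54F6.6 lies on the plus strand at 7523692 to 7525421 with 549 counted bases, and 1327 bases separate them, so that the genes point away from each other. In the Ensembl annotation of the same build each of them has 2 coding exons, of 157 and 125 bases before the stop codon. The annotated coding parts of the pair are thus equal in length exon by exon. Ensembl's C54F6.15 carries another 15 bases of 5′ UTR and 132 bases of 3′ UTR that the counted bases leave out. Ensembl's C54F6.6 ends at 7524164 and has 423 exonic bases, and the span of the count table's C54F6.6 also covers most of a separate Ensembl gene, C54F6.20, whose reads cannot be told apart from those of C54F6.6 here. Whether reads are shared between C54F6.15 and C54F6.6 was not tested, since no sequence was at hand.

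In daf-2(rf) cells both genes were near the detection limit on D1 and among the most age-elevated transcripts on D7. C54F6.15 had 49.0, 25.3 and 22.1 CPM in the 3 daf-2(rf) D7 libraries, against 1.19, 0.208 and 0.155 CPM in the daf-2(rf) D1 libraries. These are 563, 1011 and 784 reads on D7 and 10, 2 and 2 reads on D1. The lowest D7 library thus stood far above the highest D1 library. C54F6.6 had 159, 56.00 and 39.8 CPM in the daf-2(rf) D7 libraries, from 1412 to 2236 reads each, against 1.66, 2.60 and 0.233 CPM in the daf-2(rf) D1 libraries, from 3 to 25 reads each. For both genes replicate 1 was the highest of the D7 libraries in CPM, while replicate 2 held the most reads. The TMM factors of these libraries were 0.945, 3.21 and 2.16, so their order depends on the normalization. The fitted log2 fold change was 6.09 for C54F6.15 and 5.88 for C54F6.6, ranks 2 and 3 of 7337 genes tested in daf-2(rf). These values chose the genes. In that comparison 13.5% of the genes tested had all D7 libraries above all D1 libraries, and 0.0681% were called higher on D7, which needed an adjusted p under 0.05 and a log2 fold change of 1 or more. The fold of C54F6.15 rests on few D1 reads: the ratio of means was 62.1, and without daf-2(rf) D1 replicate 1, which held 10 of the 14 reads, it was 177. The ratio of C54F6.6 was 56.5, and without daf-2(rf) D7 replicate 1 it was 31.9, while without daf-2(rf) D1 replicate 2 it was 89.4.

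**Figure D1:**
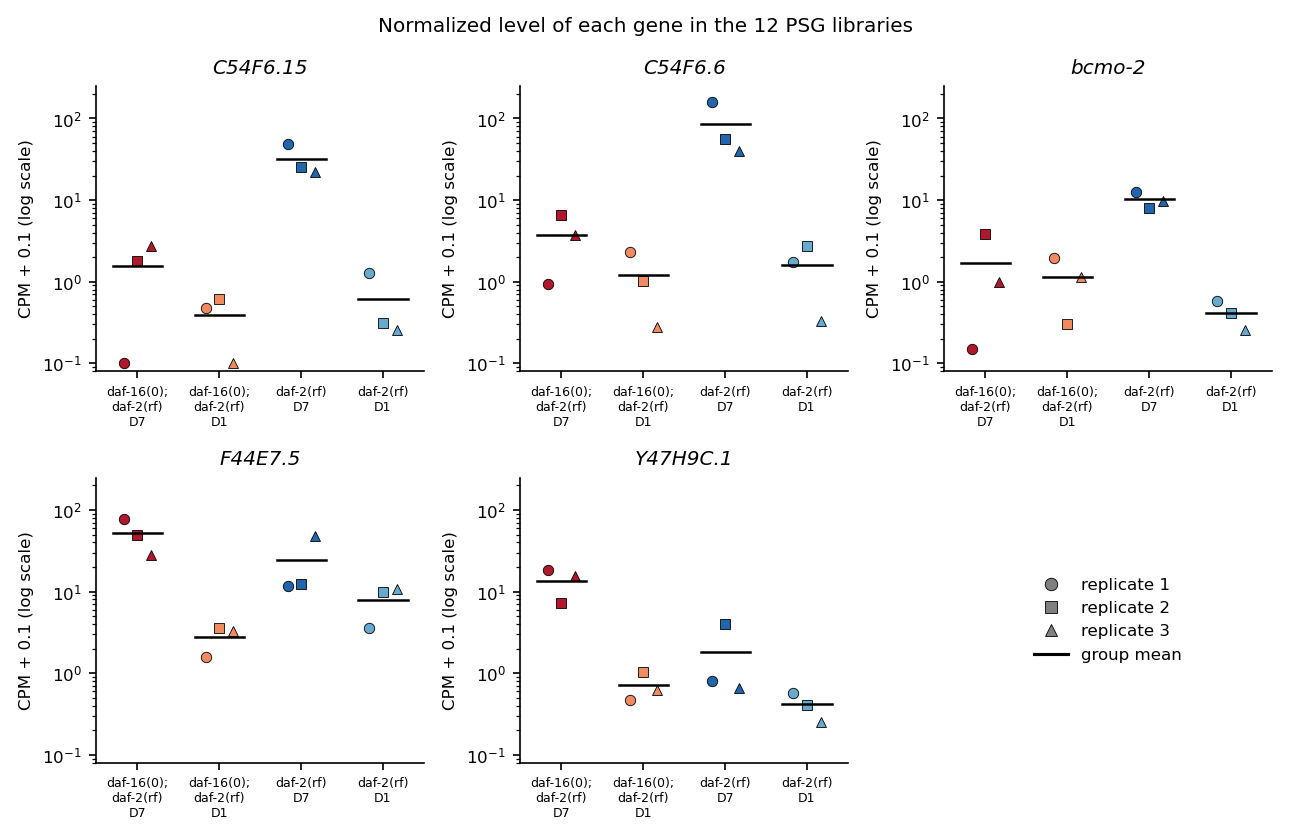
TMM-normalized level of each of the 5 genes in every library (CPM plus 0.1, log scale), by group. Points are replicates and the black bar is the mean of 3. C54F6.15, C54F6.6 and bcmo-2 are highest in the 3 daf-2(rf) D7 libraries, F44E7.5 and Y47H9C.1 have their highest library and their highest mean in the double mutant on D7, and F44E7.5 overlaps between the genotypes on D7.

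Without daf-16 both genes stayed low on D7. C54F6.15 had 0, 1.67 and 2.66 CPM in the double mutant D7 libraries, against 0.372, 0.514 and 0 CPM in the double mutant D1 libraries. These are 0, 27 and 36 reads on D7 and 1, 5 and 0 reads on D1, and the groups overlapped because replicate 1 of D7 had no read. C54F6.15 did not pass the filter on low counts in this comparison (more than 10 reads in all 3 replicates of either age). An exact two-sided permutation test of its CPM gave p = 0.4, where 0.1 is the smallest value that 3 against 3 libraries allow. edgeR without the filter gave a log2 fold change of 2.26 ± 0.95 (SE) with a Benjamini-Hochberg adjusted p of 0.155. The ratio of means, 4.89, depended on single libraries and lay between 2.83 without D7 replicate 3 and 7.76 without D1 replicate 2.

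C54F6.6 had 0.825, 6.44 and 3.63 CPM in the double mutant D7 libraries, against 2.23, 0.926 and 0.175 CPM in the double mutant D1 libraries. D7 replicate 1 fell within the D1 range and the other 2 D7 libraries lay above it. The log2 fold change was 1.87 ± 0.90 (SE, 3 libraries against 3), with an adjusted p of 0.193 over 7541 genes by edgeR's quasi-likelihood test, so the difference was not called. In this comparison 0.199% of the genes tested were called higher on D7, and 29.6% had an unadjusted p under 0.05, against 0.0646 for C54F6.6. The gene passed the filter through its D7 libraries, which held 16 to 104 reads each, while the D1 libraries held 1 to 9. Over 14 alternative settings its log2 fold change was 1.14 to 2.58 and its adjusted p 0.0614 to 0.482, including 0.154 by DESeq2. It was lowest, 1.14, without D7 replicate 2.

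On D7 the genotypes did not overlap for either gene. C54F6.15 averaged 1.45 ± 1.35 CPM in the double mutant and 32.1 ± 14.7 CPM in daf-2(rf) (SD, n = 3 each), a log2 ratio of -4.48. C54F6.6 averaged 3.63 ± 2.81 CPM in the double mutant and 84.8 ± 64.4 CPM in daf-2(rf), a log2 ratio of -4.55. Since the daf-2(rf) D7 libraries chose the genes, these ratios are descriptions. The ratio of C54F6.15, 0.0450, was 0.0260 without double mutant D7 replicate 3, and that of C54F6.6, 0.0428, was 0.0262 without double mutant D7 replicate 2 and 0.0758 without daf-2(rf) D7 replicate 1. All double mutant libraries lay below all daf-2(rf) libraries on D7 for 12.3% of 7933 genes with enough reads. On D1 the genotypes overlapped, at 0.296 ± 0.266 CPM in the double mutant and 0.517 ± 0.582 CPM in daf-2(rf) for C54F6.15, and at 0.175 to 2.23 CPM in the double mutant and 0.233 to 2.60 CPM in daf-2(rf) for C54F6.6. For both genes daf-2(rf) D7 was thus the one group that stood apart from the rest, and the other 3 groups overlapped one another.

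The deposited FPKM are fragments scaled to counted length and to 1 constant per library, which was not the library's total of assigned reads. On that scale C54F6.15 averaged 112 ± 49.7 and C54F6.6 152 ± 114 in daf-2(rf) on D7. The FPKM of C54F6.6 was 1.68, 1.15 and 0.935 times that of C54F6.15 in the 3 libraries of that group, so that neither was the higher one in all of them. Since the counted bases of C54F6.6 reach beyond its Ensembl model and those of C54F6.15 leave out its UTRs, these ratios compare the models as counted and not the transcripts.

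By edgeR no other gene around the pair was called in either age comparison. Of all genes, 0.583% were called in the double mutant and 0.218% in daf-2(rf). Among the genes around the pair, srb-19 and C54F6.5 passed the read filter only in daf-2(rf). Those with a few reads per group passed it in neither comparison and could not be called. srb-19, a member of a chemoreceptor family, lies on the side of C54F6.15 and averaged 0.510 ± 0.485 FPKM in the double mutant on D7, 0.138 ± 0.238 FPKM in the double mutant on D1, 0.712 ± 0.371 FPKM in daf-2(rf) on D7 and 0.251 ± 0.382 FPKM in daf-2(rf) on D1. Farther out on that side, srb-18 and nhr-171 had at most 4 reads in any group's sum. On the side of C54F6.6, 147 bases beyond its end, lies an unnamed gene model of the count table on the plus strand (7525569 to 7528269), whose span covers Ensembl's C54F6.18 and C54F6.17. It had 1.39, 8.86 and 10.9 CPM in the double mutant D7 libraries, against 0.745, 0 and 1.40 CPM in the double mutant D1 libraries. In daf-2(rf) it had 9.14, 9.49 and 6.59 CPM on D7, against 0.832, 3.54 and 1.24 CPM on D1. Its log2 fold change with age was 3.42 ± 1.07 (adjusted p = 0.0808) in the double mutant and 2.20 ± 0.53 (adjusted p = 0.0840) in daf-2(rf) by edgeR, neither past the threshold. On D7 its levels in the genotypes overlapped, where those of C54F6.15 and C54F6.6 did not. Behind it, C54F6.5, whose 2 coding exons of 114 and 54 bases have the lengths of those of C54F6.20, had a log2 fold change of 0.11 ± 0.64 in daf-2(rf) (adjusted p = 0.931).

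**Figure D2:**
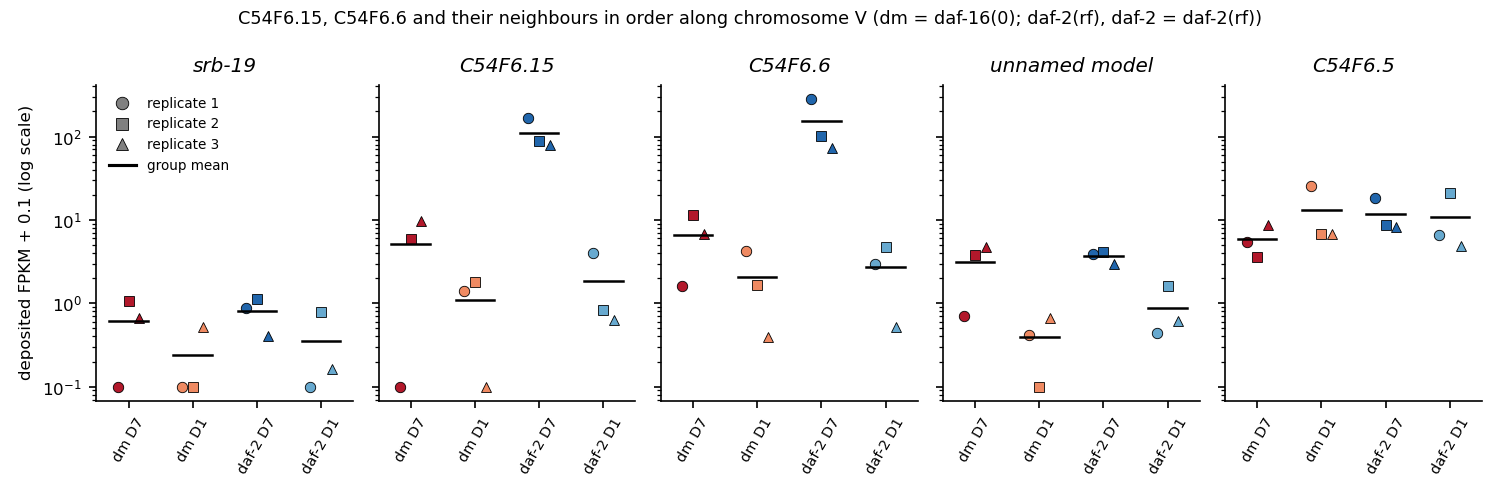
Deposited FPKM plus 0.1 (log scale) of C54F6.15, C54F6.6 and 3 genes around them, in their order along the chromosome (1 unnamed model with 2 reads or fewer in every group, between the last 2 panels, is left out). Points are replicates, bars group means, dm stands for daf-16(0); daf-2(rf) and daf-2 for daf-2(rf). The middle pair is above 70 FPKM only in daf-2(rf) on D7, while the unnamed model is at similar levels on D7 in both genotypes.

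Over the 12 libraries the gene most like C54F6.15 was C54F6.6, among 8096 genes with enough reads in at least 1 group (Pearson r of log2 CPM = 0.95), and the reverse held too. The next 2 were sod-5, which encodes a copper/zinc superoxide dismutase, with r = 0.92 for either gene, and F08H9.4, annotated as a small heat shock protein and named hsp-16.21 in RefSeq, with r = 0.92 for C54F6.15 and 0.88 for C54F6.6. These correlations describe 12 libraries that share the 4 groups. sod-5 had 0.258 to 1.61 CPM in the double mutant libraries of both ages and 186 to 315 CPM in daf-2(rf) D7 libraries, against 0.0776 to 4.52 CPM in daf-2(rf) D1 libraries. F08H9.4 had at most 0.558 CPM in double mutant libraries and 17.6 to 83.8 CPM in daf-2(rf) D7 libraries, against 0.312 to 1.07 CPM in daf-2(rf) D1 libraries. Both genes, like the pair, were high in the 3 daf-2(rf) D7 libraries alone. ftn-1, a ferritin gene 20552 bases beyond the end of C54F6.6 and a known target of DAF-16 in whole worms, had few reads, which summed to 4 in the double mutant on D7, 2 in the double mutant on D1, 43 in daf-2(rf) on D7 and 23 in daf-2(rf) on D1.

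bcmo-2 (F53C3.12) lies on the minus strand of chromosome II at 3908489 to 3910837, with 1653 counted bases in 6 exons. It had 12.63, 7.96 and 9.66 CPM in the daf-2(rf) D7 libraries, against 0.475, 0.312 and 0.155 CPM in the daf-2(rf) D1 libraries. The D7 values came from 145, 318 and 343 reads and the D1 values from 4, 3 and 2 reads. The D7 libraries lay close together and far above D1. Its fitted log2 fold change of 5.08, rank 8 of 7337, chose the gene and depends on the scale at these low D1 counts: limma gave 4.47 on log2(FPKM + 0.1) and 2.56 on log2(FPKM + 1). In the double mutant D7 libraries bcmo-2 had 0.0516, 3.78 and 0.888 CPM, against 1.86, 0.206 and 1.05 CPM in the double mutant D1 libraries. Replicate 2 held 61 of the 74 D7 reads (82.4%), and the ages overlapped. The gene did not pass the read filter there. The exact two-sided permutation p was 0.9, and edgeR without the filter gave a log2 fold change of 0.95 ± 0.81 with an adjusted p of 0.579. The ratio of means was 1.51, and without D7 replicate 2 it turned round to 0.452.

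On D7 bcmo-2 averaged 1.57 ± 1.96 CPM in the double mutant and 10.1 ± 2.36 CPM in daf-2(rf), a log2 ratio of -2.68 with no overlap between the genotypes. Without double mutant D7 replicate 2 the ratio of the genotypes was 0.0466, against 0.156 with it. On D1 it averaged 1.04 ± 0.828 CPM in the double mutant and 0.314 ± 0.1601 CPM in daf-2(rf), and those groups overlapped. As for the C54F6 pair, daf-2(rf) D7 was the one group above all others, and the remaining groups overlapped one another.

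The count table places 3 genes in the RPE65 family of carotenoid oxygenases. bcmo-1, on chromosome II as well, had 1, 40 and 2 reads in the double mutant D7 libraries, against 0, 1 and 0 reads in the double mutant D1 libraries. In daf-2(rf) it had 6, 141 and 98 reads on D7, against 1, 0 and 3 reads on D1. It passed the read filter in neither comparison. Replicate 2 of the double mutant on D7, the library with most of the bcmo-2 reads of its group, held 93.0% of the group's bcmo-1 reads too. Replicate 1 of daf-2(rf) on D7 held 2.45% of its group's bcmo-1 reads. That library had the highest bcmo-2 level of its group in CPM but the fewest bcmo-2 reads, 145. Per length, bcmo-2 averaged 6.05 ± 1.36 FPKM and bcmo-1 1.38 ± 0.954 FPKM in daf-2(rf) on D7. F49E10.2, the third gene of the family and looked up after the values were seen, had at most 1 read in any library.

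**Figure D3:**
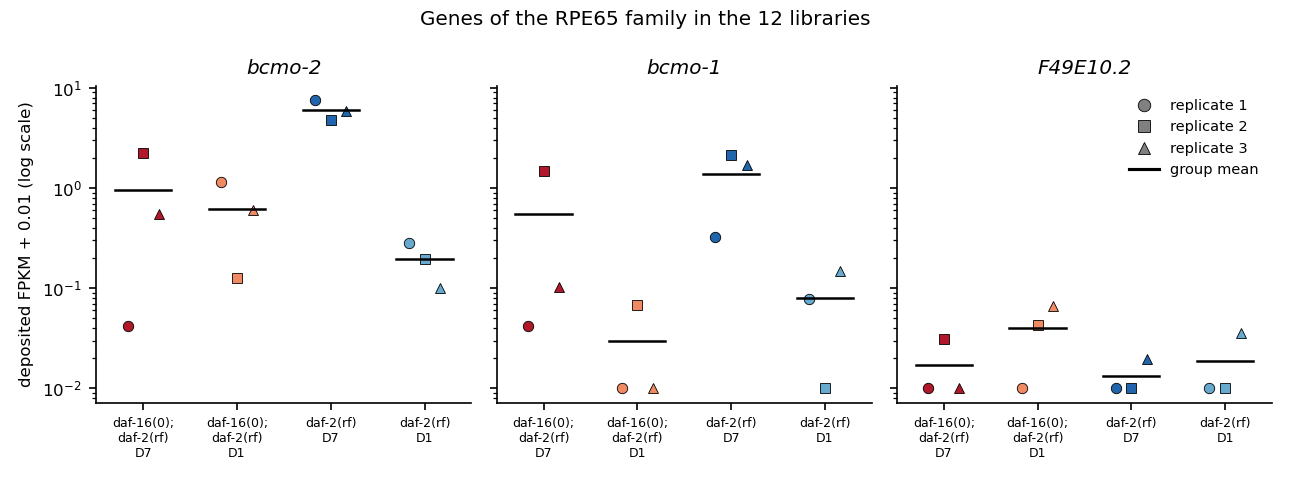
Deposited FPKM plus 0.01 (log scale) of the 3 genes of the RPE65 family by group. Points are replicates and bars are means of 3. bcmo-2 is tightly grouped in daf-2(rf) on D7 at 4.78 to 7.49 FPKM, bcmo-1 is lower and more scattered, and F49E10.2 stays at 0 or 1 read per library.

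A list of 19 genes for carotenoid and retinoid handling held bcmo-1, bcmo-2 and the lbp and far genes, which encode proteins that bind fatty acids and retinoids. In the double mutant, 6 of the 19 passed the read filter and none was called in either direction by edgeR, against 0.583% of all genes, with a median log2 fold change of -1.14 against 0.08 over all 7541 genes. In daf-2(rf), 9 passed, none other than bcmo-2 was past the threshold, against 0.218% of all genes, and the median was -0.18 against 0.07 over all 7337 genes. At an unadjusted p under 0.05, which 29.6% of all genes had in the double mutant and 22.2% in daf-2(rf), edgeR had 1 gene of the list higher and 3 lower on D7 in the double mutant, and 1 higher and 0 lower besides bcmo-2 in daf-2(rf). DESeq2 called 1 higher and 3 lower in the double mutant, where it called 8.91% of all genes higher and 9.03% lower, and 0 of the members other than bcmo-2 in daf-2(rf), where it called 3.97% higher and 4.91% lower. limma on log2(FPKM + 1) called none of the members other than bcmo-2, with 0.623% of all genes higher and 0.411% lower in the double mutant, and 0.572% higher and 0.831% lower in daf-2(rf). far-1, a secreted fatty acid and retinol binding protein, had the largest positive log2 fold change among the list's members that passed the read filter, apart from bcmo-2 (bcmo-1, which did not pass, had larger ratios from few reads): it averaged 106 CPM on D7 and 15.7 CPM on D1 in the double mutant (log2 fold change 2.73 ± 0.97, adjusted p = 0.106), and 23.6 CPM on D7 and 3.64 CPM on D1 in daf-2(rf) (2.69 ± 0.96, adjusted p = 0.159).

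The genes most like bcmo-2 over the 12 libraries were T07A9.9, a nucleolar GTP-binding protein named nog-1 in RefSeq (r = 0.91), rab-8, a small GTPase of vesicle traffic (r = 0.90), and nap-1, a nucleosome assembly protein (r = 0.90). Their fitted log2 fold changes with age in daf-2(rf) were 2.23 for T07A9.9, 1.17 for rab-8 and 2.34 for nap-1, smaller than that of bcmo-2. T07A9.9 averaged 163 ± 87.3 CPM in the double mutant on D7, 149 ± 70.0 CPM in the double mutant on D1, 424 ± 178 CPM in daf-2(rf) on D7 and 93.8 ± 20.3 CPM in daf-2(rf) on D1.

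F44E7.5 and Y47H9C.1 had the opposite order of genotypes on D7. F44E7.5 lies on the minus strand of chromosome V, at 5778817 to 5780922 in Ensembl, which gives it 2 transcripts. The count table places the gene at 5779327 to 5780922, which lacks the end nearest to 5778817, with 1596 counted bases. That number equals both the whole counted span and the exonic bases of the longer Ensembl transcript. Which bases were counted is therefore not settled. The gene mir-253 lies in its first intron, and 2 annotated non-coding RNAs overlap it on the other strand. mir-253 and 1 of the 2 had no read in any library, and the other had 1. F44E7.5 had 77.3, 49.9 and 28.2 CPM in the double mutant D7 libraries, from 1500, 806 and 381 reads, against 1.49, 3.497 and 3.15 CPM in the double mutant D1 libraries, from 4, 34 and 18 reads. All D7 libraries were far above D1, with a fitted log2 fold change of 4.18, rank 40 of 7541. This difference chose the gene. In the double mutant, 21.1% of the genes tested had all D7 libraries above all D1 libraries.

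In daf-2(rf), which the choice of F44E7.5 did not use, its level had the same direction and a smaller size. It had 11.8, 12.3 and 47.8 CPM in the daf-2(rf) D7 libraries, against 3.45, 9.68 and 10.6 CPM in the daf-2(rf) D1 libraries. All 3 D7 libraries lay above all 3 D1 libraries, an order that 13.5% of the genes tested in daf-2(rf) had. Of these D7 libraries 2 did so by little, and replicate 3 held 73.0% of the D7 reads. The log2 fold change was 1.64 ± 0.62 (SE, 3 libraries against 3), with an unadjusted p of 0.0263 and an adjusted p of 0.173 over 7337 genes by edgeR's quasi-likelihood test, so the difference was not called, whereas 22.2% of all genes tested had an unadjusted p under 0.05. DESeq2 gave an adjusted p of 0.0870 and limma on log2(FPKM + 1) one of 0.212. Over 15 alternatives the adjusted p was 4.93e-04 to 0.458, and the gene was called only in the fit without a read filter. Without daf-2(rf) D7 replicate 3 the log2 fold change was 0.64.

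On D7 F44E7.5 averaged 51.8 ± 24.6 CPM in the double mutant and 23.95 ± 20.6 CPM in daf-2(rf), and the genotypes overlapped because daf-2(rf) replicate 3 lay within the range of the double mutant. The ratio of means was 2.16, and it was 4.30 without that library. On D1 the order was the reverse, with 2.71 ± 1.07 CPM in the double mutant and 7.89 ± 3.88 CPM in daf-2(rf), and the groups overlapped through daf-2(rf) D1 replicate 1. In order of means, the double mutant on D7 came first, daf-2(rf) on D7 next, then daf-2(rf) on D1 and last the double mutant on D1. Neighbours in that order overlapped, except daf-2(rf) D7 and daf-2(rf) D1.

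The genes most like F44E7.5 were ulp-1, a SUMO protease (r = 0.90), flt-1, annotated by its likeness to a bromodomain protein (r = 0.90), and syd-2, the liprin-alpha of synapses (r = 0.89). Their fitted log2 fold changes with age in the double mutant were 1.10 for ulp-1, 2.05 for flt-1 and 1.96 for syd-2, smaller than that of F44E7.5. flt-1 averaged 7.01 ± 0.672 CPM in the double mutant on D7, 1.64 ± 0.189 CPM in the double mutant on D1, 5.41 ± 2.21 CPM in daf-2(rf) on D7 and 4.10 ± 0.921 CPM in daf-2(rf) on D1.

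Y47H9C.1 lies on the minus strand of chromosome I at 11830985 to 11833166, with 1174 counted bases in 6 exons. It had 18.4, 7.06 and 15.2 CPM in the double mutant D7 libraries, from 357, 114 and 206 reads, against 0.372, 0.926 and 0.525 CPM in the double mutant D1 libraries, from 1, 9 and 3 reads. The fitted log2 fold change was 4.30, rank 36 of 7541, and it chose the gene. In daf-2(rf) Y47H9C.1 had 0.697, 3.96 and 0.564 CPM on D7, against 0.475, 0.312 and 0.155 CPM on D1. All D7 libraries lay above all D1 libraries, an order that 13.5% of the genes tested in daf-2(rf) had. Replicate 2 held 84.9% of the 186 D7 reads and the other 2 were near the D1 level. The gene did not pass the read filter there. The exact two-sided permutation p was 0.1, the smallest possible, and edgeR without the filter gave a log2 fold change of 2.62 ± 0.91 with an adjusted p of 0.0758. The ratio of means was 5.53, and without daf-2(rf) D7 replicate 2 it was 2.00.

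On D7 Y47H9C.1 averaged 13.6 ± 5.85 CPM in the double mutant and 1.74 ± 1.92 CPM in daf-2(rf), a log2 ratio of 2.96. The genotypes did not overlap, and all double mutant libraries lay above all daf-2(rf) libraries for 13.3% of the 7933 genes. The ratio was 7.80, and 21.5 without daf-2(rf) D7 replicate 2. On D1 it averaged 0.608 ± 0.286 CPM in the double mutant and 0.314 ± 0.1601 CPM in daf-2(rf), with overlap. The double mutant on D7 stood above the 3 other groups, daf-2(rf) on D7 overlapped the double mutant on D1, and daf-2(rf) on D1, which overlapped the double mutant on D1, was last.

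The genes most like Y47H9C.1 were clec-4, a C-type lectin gene of the innate immune list (r = 0.95), H43E16.1 (r = 0.92) and W05H9.1, named lro-1 in RefSeq (r = 0.92). clec-4 averaged 4.01 ± 2.06 CPM in the double mutant on D7, 0.254 ± 0.222 CPM in the double mutant on D1, 0.578 ± 0.953 CPM in daf-2(rf) on D7 and 0.0347 ± 0.0601 CPM in daf-2(rf) on D1. Its age difference in the double mutant is a description, since it was picked for its likeness to Y47H9C.1 over the same libraries, and the D1 values there rest on 0, 4 and 2 reads. Of the 22 genes of the innate immune list, 13 were tested in the double mutant and 7 in daf-2(rf), and edgeR called none in either comparison, with 2 higher and 2 lower on D7 at an unadjusted p under 0.05 in the double mutant and 2 higher and 0 lower in daf-2(rf). DESeq2 called 2 higher and 2 lower in the double mutant and 1 higher in daf-2(rf), and limma 1 higher in the double mutant and none in daf-2(rf), to be read against the shares of all genes given for the carotenoid list. Their median log2 fold change was -0.65 in the double mutant, against 0.08 over all genes, and 0.06 in daf-2(rf), against 0.07 over all genes.

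**Figure D4:**
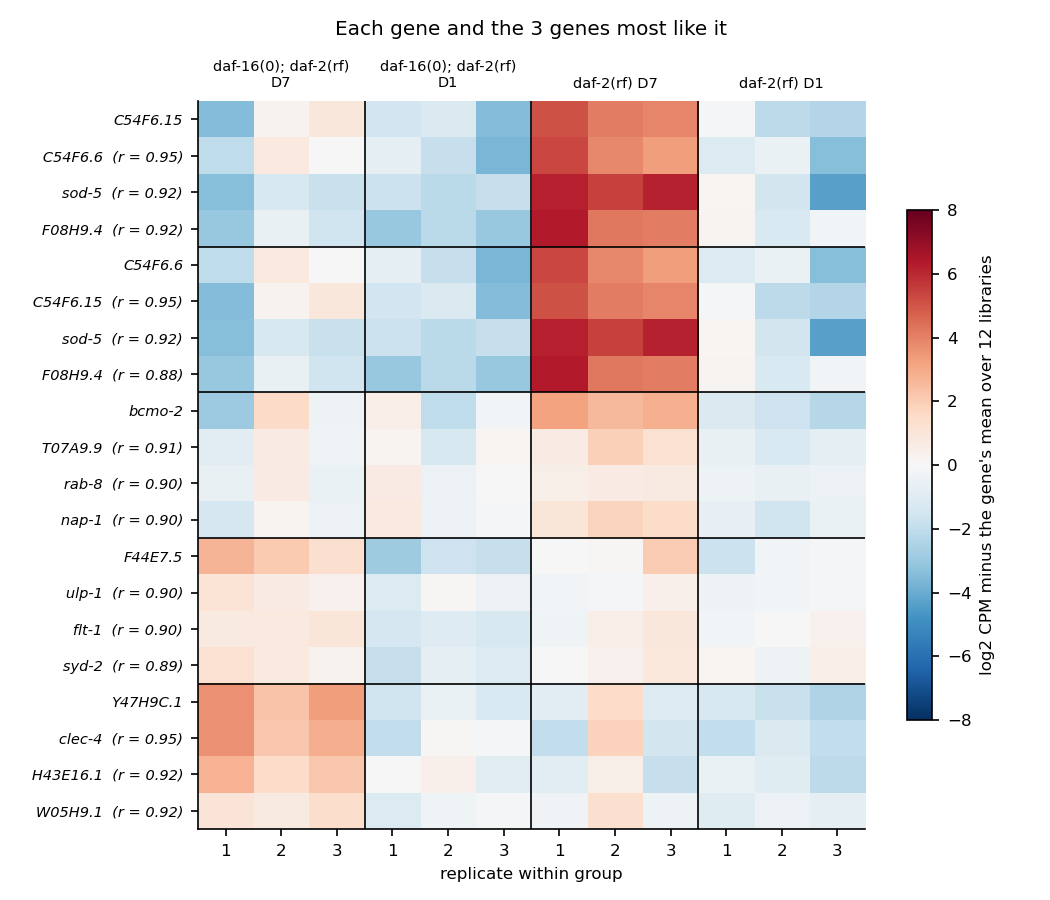
Log2 CPM of each of the 5 genes and of the 3 genes most correlated with it, minus the gene's own mean over the 12 libraries (colour), with libraries in columns by group and replicate. Pearson r with the gene on top of each block is printed beside each name, over 12 libraries. The first 2 blocks hold the same 4 genes, highest in the 3 daf-2(rf) D7 libraries, and the last block is highest in the double mutant on D7.

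Set side by side, all 5 genes had a positive log2 fold change in both age comparisons (with the fit without a read filter for the 3 that did not pass it, and with bcmo-2 in the double mutant turning round without D7 replicate 2), and each was larger in the genotype that chose it. The choice itself favoured a larger value there, so this order is no result about the genes. In the comparison the choice did not use, 2 of the 5 passed the read filter (C54F6.6 in the double mutant and F44E7.5 in daf-2(rf)) and neither was called by edgeR, DESeq2 or limma with the filter, while 1 of the 2 had an unadjusted p under 0.05. Whether the age difference itself differed between the genotypes was not tested, since the same libraries chose the genes. Among the 5, log2 CPM over the 12 libraries had r = 0.86 between bcmo-2 and either C54F6 gene, r = 0.66 between F44E7.5 and Y47H9C.1, and r of -0.01 to 0.32 between genes chosen in different genotypes. Choosing genes by genotype on these same libraries favours such a contrast, so the correlations are a description.

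**Figure D5:**
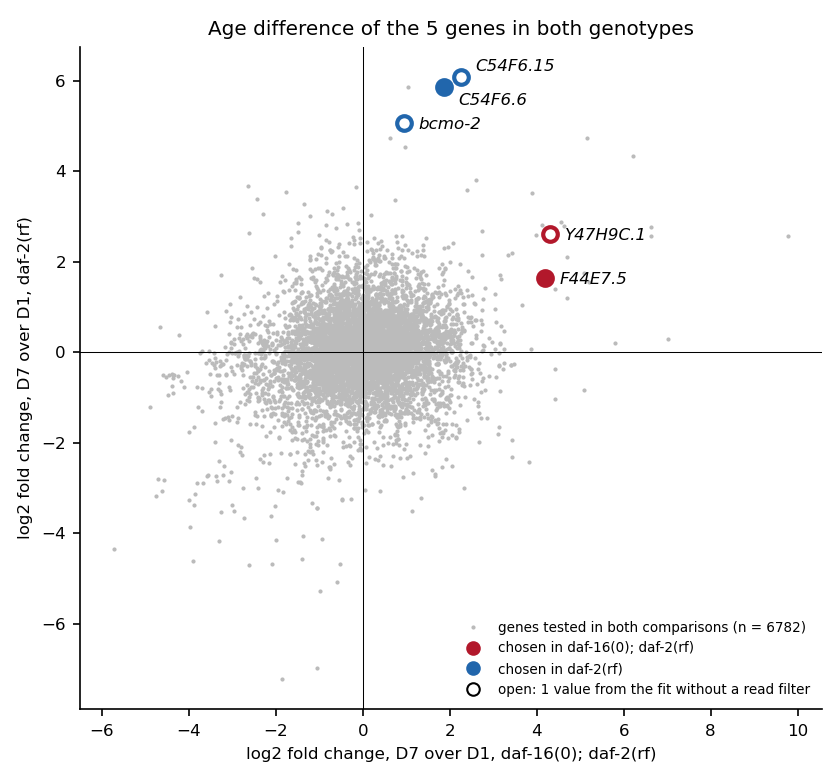
Log2 fold change of D7 over D1 in the double mutant (horizontal) and in daf-2(rf) (vertical) for the 6782 genes tested in both comparisons (grey) and for the 5 genes (red, chosen in the double mutant; blue, chosen in daf-2(rf)). Open circles carry 1 value from the fit without a read filter. All 5 lie in the upper right, the blue ones at 5.08 to 6.09 on the vertical axis and the red ones at 4.18 and 4.30 on the horizontal axis.

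In the list of 20 genes known as activated by DAF-16 in whole worms, 16 were tested in daf-2(rf). By edgeR sod-5 rose on D7 (log2 fold change 7.16 ± 1.003, adjusted p = 0.0259), where 0.0681% of all genes were called higher. sod-5 is among the genes most like the C54F6 pair over these libraries, so its adjusted p is no independent test. The gene passed the read filter through its D7 libraries, and its daf-2(rf) D1 libraries held 38, 13 and 1 reads. dod-6 fell (-3.13 ± 0.43, adjusted p = 0.0244 by edgeR), where 0.15% of all genes were called lower. The median of the list was 0.85 against 0.07 over all genes. In the double mutant, 8 were tested and none was called higher by edgeR. There sip-1, a small heat shock protein gene, fell (-4.52 ± 0.64, adjusted p = 0.0321 by edgeR), where 0.385% of all genes were called lower. The median was -1.28 against 0.08. At an unadjusted p under 0.05, edgeR had 0 of the list higher and 4 lower in the double mutant, against 29.6% of all genes in either direction. In daf-2(rf) it had 7 higher and 1 lower at such a p, against 22.2% of all genes. Of 7 genes for iron storage and transport, the list of the nearby ftn-1, 3 were tested in the double mutant and 4 in daf-2(rf), with median log2 fold changes of -0.31 in both. None was called by edgeR or DESeq2. edgeR called 0.583% of all genes in the double mutant and 0.218% in daf-2(rf), so no call among so few genes says little. At an unadjusted p under 0.05 edgeR had 1 lower on D7, in the double mutant, against 29.6% of all genes in either direction. Of the DAF-16 list, DESeq2 called 0 genes higher and 3 lower on D7 in the double mutant, where it called 8.91% of all genes higher and 9.03% lower, and in daf-2(rf) 6 higher and 1 lower, where it called 3.97% and 4.91% of all genes. limma called 0 higher and 1 lower in the double mutant, against 0.623% and 0.411% of all genes. In daf-2(rf) limma called 2 higher and 1 lower, against 0.572% and 0.831% of all genes. With each library left out in turn, the log2 fold change was 6.55 to 8.64 for sod-5, -3.42 to -2.87 for dod-6 and -5.40 to -4.15 for sip-1, with edgeR adjusted p of 0.0193 to 0.109, 0.0222 to 0.109 and 0.0167 to 0.0971 in that order, and sod-5 stayed past the threshold in 3 of 6 such fits, dod-6 in 2 and sip-1 in 3.

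Summed levels of several cell type marker lists differed between the ages or among the libraries of a group. The 14 intestine markers summed to 1244, 132 and 433 CPM in the double mutant D7 libraries, against 2137, 548 and 1551 CPM in the double mutant D1 libraries. In daf-2(rf) they summed to 60.3, 38.8 and 25.0 CPM on D7, against 518, 742 and 451 CPM on D1. The difference in daf-2(rf) lay in the 6 vitellogenin (yolk protein) genes, which summed to 44.3, 12.9 and 15.8 CPM on D7, against 512, 721 and 440.0 CPM on D1. Of these genes vit-2, vit-3, vit-5 and vit-6 were called lower on D7 by edgeR, against 0.15% of all genes. The other 8 intestine markers summed to 16.0, 25.9 and 9.19 CPM on D7, against 6.77, 20.7 and 10.9 CPM on D1, in daf-2(rf), so that these groups overlapped. In the double mutant the vitellogenins summed to 973, 61.7 and 371 CPM on D7, against 1209, 379 and 1415 CPM on D1, and the other 8 markers to 271, 69.9 and 62.1 CPM on D7, against 928, 169 and 137 CPM on D1. Within the double mutant on D7 the order of the libraries in the vitellogenin sum was that of Y47H9C.1, in the sum of the other 8 it was not, and the part of intestinal RNA in that spread was not tested. The 10 PSG markers summed to 9005, 5141 and 5635 CPM in the double mutant on D7, against 3653, 2831 and 5172 CPM on D1, and to 3066, 2877 and 7299 CPM in daf-2(rf) on D7, against 11614, 4747 and 12245 CPM on D1. The means thus differed in opposite directions in the genotypes while the libraries overlapped within each, and 2 of the 10 markers had a positive log2 fold change in daf-2(rf), against 6 of 9 tested in the double mutant. The 5 gonadal sheath markers summed to 57.9 to 226 CPM on D7, against 49.6 to 99.2 CPM on D1, in the double mutant, and to 55.4 to 67.1 CPM on D7, against 109 to 159 CPM on D1, in daf-2(rf), without overlap in daf-2(rf). The 6 hypodermis markers summed to 3.16 to 19.7 CPM on D7, against 43.6 to 184 CPM on D1, in the double mutant, without overlap, and to 5.14 to 9.97 CPM on D7, against 9.48 to 107 CPM on D1, in daf-2(rf). edgeR called none of the PSG or sheath markers. At an unadjusted p under 0.05 it had, in the double mutant, 2 PSG markers higher and 1 lower on D7 and 1 sheath marker higher, against 29.6% of all genes. In daf-2(rf) it had 2 PSG markers and 1 sheath marker lower at such a p, against 22.2% of all genes in either direction. DESeq2 called 2 PSG markers higher and 1 lower and 1 sheath marker higher in the double mutant, against 8.91% of all genes higher and 9.03% lower. In daf-2(rf) it called 1 sheath marker lower, against 4.91% of all genes, while limma called no PSG or sheath marker in either genotype. The part of these differences in the values of the 5 genes was not tested. The 2 coelomocyte markers summed to 4.43, 54.5 and 169 CPM in the double mutant D7 libraries, against 0.372, 1.95 and 1.40 CPM in the D1 libraries, an order of D7 libraries shared by C54F6.15 and opposite to that of F44E7.5. Their part was not tested. Germ line markers summed to 26.6 to 35.2 CPM on D7, against 111 to 149 CPM on D1, in the double mutant, and to 5.49 to 49.1 CPM on D7, against 22.2 to 27.8 CPM on D1, in daf-2(rf). By edgeR cbd-1 and puf-5 of that list, and col-19 of the hypodermis list, were called lower on D7 in the double mutant, against 0.385% of all genes. All 9 germ line markers tested there were lower at an unadjusted p under 0.05 by edgeR. DESeq2 called 8 of the 9 lower, against 9.03% of all genes, and limma 1, against 0.411%. In daf-2(rf) 5 germ line markers were tested and edgeR, DESeq2 and limma called none. All 11 germ line markers had reads in every group, as had the intestine factor gene elt-2, with 20, 6, 19 and 3 reads summed over the double mutant D7 and D1 and daf-2(rf) D7 and D1.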

How the data were processed

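RNA of sorted PSG cells was measured in 12 libraries, 3 in each of 4 groups taken from the genotype labels and titles. Per the submitters' processing notes and the methods, the authors aligned paired reads with HISAT2 2.0.5 to WBcel235 and deposited raw read counts per gene from featureCounts 1.5.0-p3. CASAVA 1.8, fastp, StringTie 1.3.3b and DESeq2 1.20.0 are also named. The deposited FPKM values were made by the authors from these counts, the counted length of each gene and 1 scaling constant per library. Whether counting used strand is not given in the sources used here, so overlapping genes may share reads. 98 unnamed gene models held 0.00944% to 0.351% of a library's reads.

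CPM values were computed with TMM factors over 12 libraries. D7 was tested against D1 within each genotype in R 4.3.3 with edgeR 4.0.16 (TMM, quasi-likelihood F test, Benjamini-Hochberg adjustment over all genes tested) on genes whose 3 replicates in 1 or both ages each held more than 10 reads. A call needed an adjusted p under 0.05 and a log2 fold change of 1 or more in size. Standard errors are approximate, the absolute log2 fold change over the square root of F. Genotype levels are descriptions. Single values outside the filter were compared with an exact two-sided permutation test (scipy), 3 genes in all and without adjustment. Alternatives used DESeq2 1.42.0, limma 3.58.1 on log2(FPKM + 1) and log2(FPKM + 0.1), other normalizations and filters, all libraries in 1 fit, a replicate block and leaving out each library. No 2 libraries of a group were alike within sampling noise.

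The 5 genes and all lists were chosen with earlier results of these data known. Genes named beside them are the 3 on each side by start position, the 3 with the highest Pearson correlation of log2 CPM (prior count 2), called genes of 4 process lists, and bcmo-1 and ftn-1. Leaving out libraries in the genotype ratios was added after the values were seen. All names on the lists of processes and cell type markers were matched to the table. P-values set an age difference against the spread between libraries, 3 per group, and limits from counts cover counting error only. Promoter and protein sequences were not analysed here.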

Additional observations from a re-analysis of the deposited data

How the results depend on the processing

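Of 211 recomputed values of the 5 genes, 207 kept their direction. Some of the 211 left out a library that the comparison did not hold and so repeated its value. Others recomputed the age comparison that chose the gene. The count is therefore no measure of robustness. The 4 that reversed were all low-count comparisons with 1 library left out: the log2 ratio of bcmo-2, D7 over D1 in the double mutant, was -1.15 without D7 replicate 2 (-1.15 to 1.38 over all such fits), the log2 genotype ratio of C54F6.15 on D1 was 0.70 without daf-2(rf) D1 replicate 1 (-1.47 to 0.70), and that of C54F6.6 on D1 was 0.07 without double mutant D1 replicate 3 and 0.23 without daf-2(rf) D1 replicate 2 (-1.45 to 0.23). F44E7.5 in daf-2(rf) passed the threshold only without a read filter. The number of genes called depended strongly on the method. In the double mutant it was 44 (15 higher, 29 lower on D7), against 1353 with DESeq2, 1394 without a read filter, 2 with more than 10 reads required in every library, 979 with all 12 libraries in 1 fit, 78 with limma and a pseudocount of 1 FPKM, 21 with limma and one of 0.1 FPKM, and 0 to 635 with 1 library left out. In daf-2(rf) it was 16 (5 higher, 11 lower), against 651, 863, 53, 63, 103 and 65 in the same order, and 0 to 231 with 1 library left out. The cause was not tested. The counts of 0, all by edgeR, were without D1 replicate 1 or D7 replicate 2 in the double mutant, with 1754 to 1830 genes at an unadjusted p under 0.05, and without D1 replicate 2 in daf-2(rf), with 1148 such genes. The highest counts were without D1 replicate 2 in the double mutant and without D7 replicate 1 in daf-2(rf).

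With the replicate number as a block, 67 genes were called in the double mutant and 15 in daf-2(rf). Same-numbered D7 and D1 libraries did not deviate together (r = -0.00, -0.21 and 0.22 in the double mutant, and -0.16, -0.23 and 0.02 in daf-2(rf)), so the numbers were not taken as pairs. The search for promoter motifs and for similar proteins was not run.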

Other observations

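Around the other 3 genes edgeR called no neighbour in either age comparison, where it called 0.583% of all genes in the double mutant and 0.218% in daf-2(rf). Neighbours with few reads did not pass the read filter and could not be called. Next to bcmo-2, fbxb-103, F53C3.1, F53C3.3 and F53C3.11 had at most 11 reads in any group's sum. F53C3.13, 10770 bases away, averaged 103 ± 32.8 CPM in the double mutant on D7 and 771 ± 760 CPM in the double mutant on D1 (log2 fold change -2.93 ± 0.80, adjusted p = 0.0636 by edgeR), and 154 ± 70.5 CPM in daf-2(rf) on D7 and 159 ± 15.3 CPM in daf-2(rf) on D1 (-0.01 ± 0.38, adjusted p = 0.987). F44E7.2, 7559 bases from F44E7.5 on the other strand, had 21, 14 and 9 reads in the double mutant D7 libraries, against 0, 2 and 0 reads in the double mutant D1 libraries, and passed the read filter in neither comparison. F44E7.4, next to F44E7.5 on the same strand, had a log2 fold change of 0.53 ± 0.40 in the double mutant and 0.18 ± 0.32 in daf-2(rf). Beside Y47H9C.1, the pseudogene T02G6.10 had -0.51 ± 0.64 in the double mutant and 1.28 ± 0.51 in daf-2(rf), with adjusted p of 0.609 and 0.186.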
